A study of Mus musculus with 14 samples.

Results

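The receptors for interleukins that act on activated T cells were examined as a set of 10 genes, Il2rb, Il2rg, Il7r, Il4ra, Il21r, Il15ra, Il6ra, Il6st, Il27ra and Il10ra, taken by name from 45207 mouse genes that had a value in at least 1 experiment. A gene was read from the row that carries its name or, where a library listed no such row, from the unnamed assembled locus that shared at least 0.8 of the joint span with the annotated gene. By this rule 9 of the 10 genes had a value in all 14 libraries, and Il2rg did not, because the only locus over it also spans 2 neighbouring annotations. The joint locus is described beside the 9 genes and is not counted among them.

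The libraries were made from activated CD4+ T cells of C57BL/6 mice, labelled as spleen. In the first experiment, 4 WT samples and 4 samples from Hdac1 fl/fl Hdac2 fl/+ Cd4-Cre mice (HDAC1cKO-HDAC2HET, which keep 1 functional Hdac2 allele in T cells) were taken after 3 days of culture with antibodies to CD3 and CD28. In the second, 3 WT and 3 Hdac1 fl/fl Cd4-Cre samples (HDAC1cKO) were, as the study describes them, cultured for 3 days and restimulated through CD3 for 12 hours. The study's methods describe sorted naive cells from pooled spleen and lymph nodes as the starting population, mice of both sexes, littermate controls and a sort of viable cells before RNA was prepared. For the second experiment the study cites an earlier report, and whether all of these methods apply to it is not given in the sources used here. Both groups of the first experiment had recombinant human IL-2 in their nonpolarizing (Th0) medium. Whether the second did is not given in the sources used here. Cd4-Cre acts from the double-positive stage of thymic development on, so the cells lacked the deleted alleles before they were activated. The question of the comparisons was how receptor mRNA differs when HDAC1, or HDAC1 with part of HDAC2, is missing from activated CD4+ T cells.

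Expression is given in FPKM, the number of fragments divided by transcript length and by the mapped total of the library, so levels of different genes can be set side by side. Fold changes were fitted on log2(FPKM + 0.1) with limma, separately in each experiment, and a gene was called higher or lower at a Benjamini-Hochberg adjusted p of at most 0.05 over all genes tested. Depth estimated from the confidence bounds of low values ranged from 22500000 to 53200000 fragments per library. Hdac1 was 78.1 ± 1.44 FPKM (SD, n = 4) in WT and 8.30 ± 1.89 (n = 4) in HDAC1cKO-HDAC2HET cells, and Hdac2 was 59.0 ± 1.04 and 35.4 ± 1.36. After restimulation Hdac1 was 75.6 ± 4.78 (n = 3) in WT and 10.1 ± 1.82 (n = 3) in HDAC1cKO cells, and Hdac2 was 72.4 ± 8.65 and 80.4 ± 6.91. In each experiment every mutant library was below every WT library for Hdac1.

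Most of these receptors share their signalling chains. IL-2Rβ (Il2rb) and the common gamma chain (Il2rg) transmit the signals of IL-2 and IL-15, while IL-2Rα (Il2ra, CD25) and IL-15Rα (Il15ra) raise the affinity for the respective cytokine. The common gamma chain also pairs with IL-7Rα, IL-4Rα and IL-21R, and couples these receptors to JAK3, whereas the ligand-specific chains bring JAK1. IL-6Rα and IL-27Rα each form a receptor with gp130 (Il6st), and IL-10Rα pairs with IL-10Rβ. Resting T cells are known to depend on IL-7 and to lower Il7r after activation, when CD25 appears on their surface.

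Of the 9 genes, 6 were higher and 2 were lower in HDAC1cKO-HDAC2HET than in WT cells, and Il6st was not called. The rises were those of Il7r, Il10ra, Il15ra, Il2rb, Il4ra and Il21r, and the falls those of Il6ra and Il27ra. A large part of the transcriptome differed in this experiment: 24.2% of 15105 genes tested were higher and 27.6% were lower. At a fold change of at least 2 in addition, 4 of the 9 genes were higher, beside 5.6% of all genes, and 1 was lower, beside 5.55%. The groups did not overlap for 7 of the 9 genes, and for 50.4% of all genes tested. The median log2 fold change of the 9 genes was 0.76, and that of all genes was -0.04. In bulk RNA, a change in the level per cell and a change in the share of cells that express a gene cannot be told apart.

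**Figure D1:**
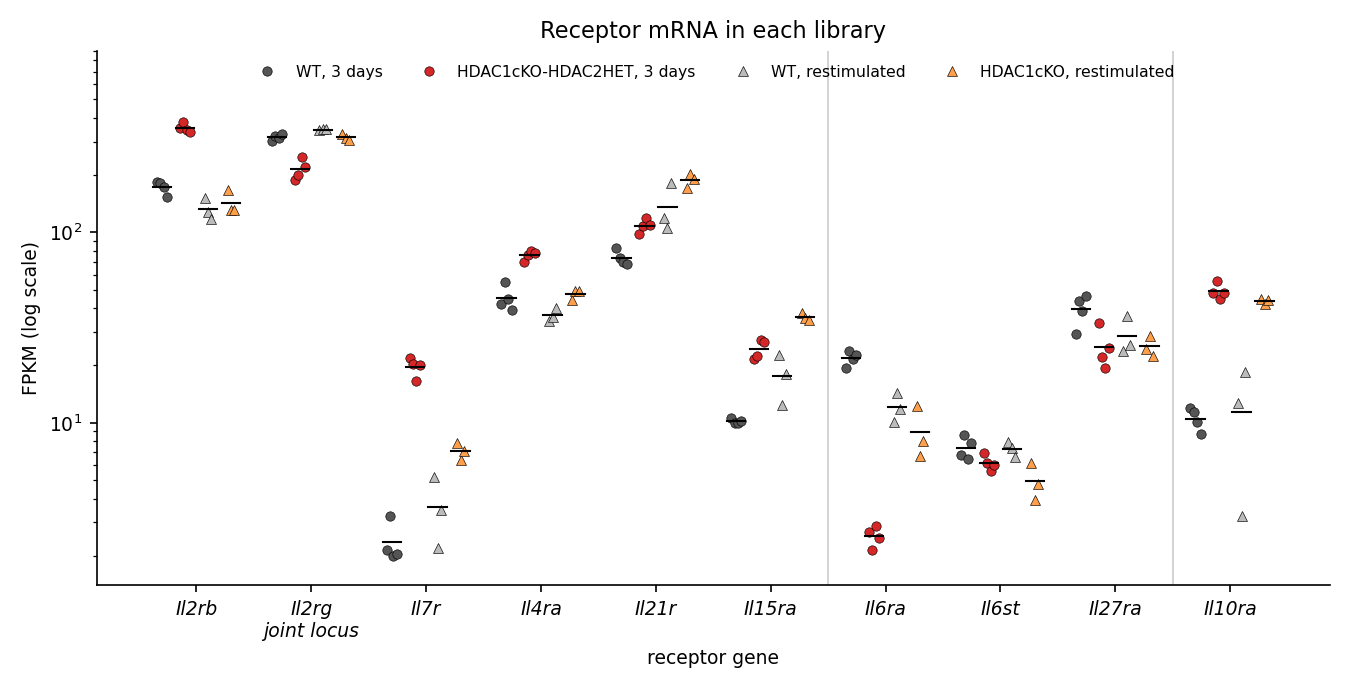
FPKM of each receptor gene (log axis) in every library, with a short line at the group mean; circles are the 3-day experiment (dark grey WT, red HDAC1cKO-HDAC2HET) and triangles the restimulated experiment (light grey WT, orange HDAC1cKO). Vertical lines separate common gamma chain, gp130 and IL-10 receptors, and the value of Il2rg is that of the joint locus. All HDAC1cKO-HDAC2HET libraries lie above WT for Il7r and Il10ra and below WT for Il6ra.

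Il2rb lies on the minus strand of chromosome 15 (mm10, chr15:78479256-78495271). Its level was 184.6, 182.8, 173 and 154 FPKM in the 4 WT samples and 354, 379, 346 and 337 FPKM in the 4 HDAC1cKO-HDAC2HET samples. The mutant mean was 2.04-fold the WT mean, and the lowest mutant sample was well above the highest WT sample. The fitted log2 fold change was 1.03 ± 0.07 (SE; adjusted p = 1.12e-05). The restimulated WT samples had 151, 128 and 118 FPKM and the HDAC1cKO samples 167, 131 and 131 FPKM. These groups overlapped, and the log2 difference of 0.11 (95% interval -0.23 to 0.45) was not called (adjusted p = 0.737).

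The IL-2 receptor chain that binds the cytokine first, Il2ra, moved the other way. It fell from 330 ± 22.9 FPKM in WT to 222 ± 13.7 FPKM in HDAC1cKO-HDAC2HET cells, a log2 fold change of -0.57 ± 0.06 (adjusted p = 0.000168). Within a library, the ratio of Il2ra to Il2rb FPKM does not depend on the scaling of that library. This ratio was 1.82 to 1.94 in WT and 0.605 to 0.670 in HDAC1cKO-HDAC2HET libraries, so the more abundant of both transcripts was Il2ra in each WT library and Il2rb in each mutant library. In the restimulated experiment it was 2.00 to 2.09 in WT and 1.27 to 1.52 in HDAC1cKO libraries. There Il2ra was 272 ± 39.4 FPKM in WT and 203 ± 7.41 FPKM in HDAC1cKO cells, and the groups did not overlap. Its log2 difference of -0.41 was not called (adjusted p = 0.241 by limma), and neither was that of Il2rb. The ratios were computed after the values of both genes had been seen and were not tested.

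Il2rg, on the X chromosome (chrX:101264378-101268255, minus strand), had no row or locus of its own. In all 14 libraries a locus at chrX:101261376-101269023 covered it together with Gm614 and the readthrough annotation Gm20489, and Il2rg made up 0.507 of that span. The joint locus had 301, 323, 312 and 330.1 FPKM in WT and 187.8, 201, 248 and 220.002 FPKM in HDAC1cKO-HDAC2HET samples. All mutant values were lower than all WT values, with a log2 fold change of -0.57 ± 0.08 (adjusted p = 0.000728). How much of it comes from Il2rg cannot be read from these values. The restimulated samples had 345, 347 and 348 FPKM in WT and 329, 314 and 304 FPKM in HDAC1cKO cells, a log2 difference of -0.14 (95% interval -0.30 to 0.03) that was not called (adjusted p = 0.417) although the groups did not overlap.

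Il7r (chr15:9505788-9530176, minus strand) was the gene of the set with the largest rise and the lowest WT level. Its values were 2.15, 3.26, 1.99 and 2.05 FPKM in WT and 21.9, 20.4, 16.5 and 20.0 FPKM in HDAC1cKO-HDAC2HET samples. The mutant mean was 8.35-fold the WT mean, and every mutant sample was several times above the highest WT sample. Its log2 fold change was 3.03 ± 0.16 (adjusted p = 5.96e-06). Restimulated cells had 5.19, 2.21 and 3.47 FPKM in WT and 7.80, 6.35 and 7.09 FPKM in HDAC1cKO samples. The groups did not overlap, but the log2 difference of 1.02 (95% interval 0.28 to 1.77) was not called (adjusted p = 0.247). The assembled locus reached upstream of the annotated gene in 4 libraries, and the shared span ranged from 0.826 to 0.997, so that at a required span of 0.9 the gene has no value in either experiment.

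Il4ra (chr7:125552120-125579474, plus strand), the signalling chain of the IL-4 and IL-13 receptors, had 42.0, 55.1, 44.6 and 39.2 FPKM in WT and 69.6, 76.5, 79.9 and 78.1 FPKM in HDAC1cKO-HDAC2HET samples. The groups were apart, with a log2 fold change of 0.76 ± 0.10 (adjusted p = 0.000504). The restimulated values were 34.2, 35.9 and 40.2 FPKM in WT and 44.0, 49.1 and 49.5 FPKM in HDAC1cKO samples. These groups were apart too, but the log2 difference of 0.37 (95% interval 0.15 to 0.59) was not called (adjusted p = 0.206). Il21r (chr7:125603429-125633570, plus strand) is the next coding gene downstream of Il4ra, 23954 bases away. It had 82.5, 73.3, 69.6 and 68.4 FPKM in WT and 98.6, 108, 119 and 109 FPKM in HDAC1cKO-HDAC2HET samples. The mutant mean was 1.48-fold the WT mean, with a log2 fold change of 0.57 ± 0.08 (adjusted p = 0.000455). After restimulation Il21r was 119, 105 and 182.4 FPKM in WT and 171, 204 and 191 FPKM in HDAC1cKO cells. WT replicate 3 lay among the mutant samples, and the log2 difference of 0.51 (95% interval -0.01 to 1.03) was not called (adjusted p = 0.348).

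Il15ra (chr2:11705290-11734317, plus strand), which presents IL-15 to cells that carry IL-2Rβ and the common gamma chain, lies 12096 bases downstream of Il2ra with no coding gene between them. The neighbours differed in direction. Il15ra rose from 10.6, 9.99, 9.99708 and 10.2 FPKM in WT to 21.7, 22.5, 27.2 and 26.4 FPKM in HDAC1cKO-HDAC2HET samples, 2.40-fold between the means. The log2 fold change was 1.25 ± 0.08 (adjusted p = 1.05e-05), and no sample of either group came near the other. The restimulated WT samples had 22.6, 12.3 and 18.0 FPKM and the HDAC1cKO samples 37.7, 35.7 and 34.6 FPKM. The groups were apart by a log2 difference of 1.07 (95% interval 0.54 to 1.60) that was not called (adjusted p = 0.174).

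Among the gp130 receptors, Il6ra (chr3:89864059-89913196, minus strand) showed the largest fall. It had 19.4, 23.8, 21.6 and 22.6 FPKM in WT and 2.66, 2.16, 2.88 and 2.49 FPKM in HDAC1cKO-HDAC2HET samples. The mutant mean was 0.117 of the WT mean, and the groups were far apart. The log2 fold change was -3.05 ± 0.10 (adjusted p = 9.13e-07). The restimulated WT samples had 10.1, 14.4 and 11.8 FPKM and the HDAC1cKO samples 12.2, 6.70 and 8.03 FPKM. HDAC1cKO replicate 1 lay among the WT samples, and the log2 difference of -0.46 (95% interval -1.07 to 0.15) was not called (adjusted p = 0.447). In the first experiment the assembled loci of Il6ra spanned the whole gene in all 8 libraries, whereas in the second they began between positions 89867526 and 89868353 and thus lacked the 3′ end of the gene, so levels of Il6ra are not compared between the experiments.

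Il6st (chr13:112464070-112510086, plus strand) encodes gp130 itself. Its values were 6.75, 8.67, 6.43 and 7.80 FPKM in WT and 6.97, 6.14, 5.55 and 6.03 FPKM in HDAC1cKO-HDAC2HET samples. The groups overlapped, and the log2 difference of -0.25 (95% interval -0.51 to -0.00012) was not called (adjusted p = 0.0883). Without WT replicate 3 the difference was -0.32 and passed the threshold (adjusted p = 0.0475). After restimulation Il6st was 7.94, 7.39 and 6.59 FPKM in WT and 6.13, 3.95 and 4.78 FPKM in HDAC1cKO cells, and the log2 difference of -0.57 (95% interval -1.02 to -0.12) was not called (adjusted p = 0.273). The ratio of Il6ra to Il6st FPKM within a library was 2.74 to 3.36 in WT and 0.352 to 0.520 in HDAC1cKO-HDAC2HET cells. It was 1.28 to 1.94 in restimulated WT and 1.68 to 1.99 in HDAC1cKO cells. As with the levels of Il6ra, these ratios are not compared between the experiments. Il6st values had wide confidence bounds, such as 2.65 to 8.44 FPKM in HDAC1cKO-HDAC2HET replicate 3 and 1.93 to 5.97 FPKM in HDAC1cKO replicate 2.

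**Figure D2:**
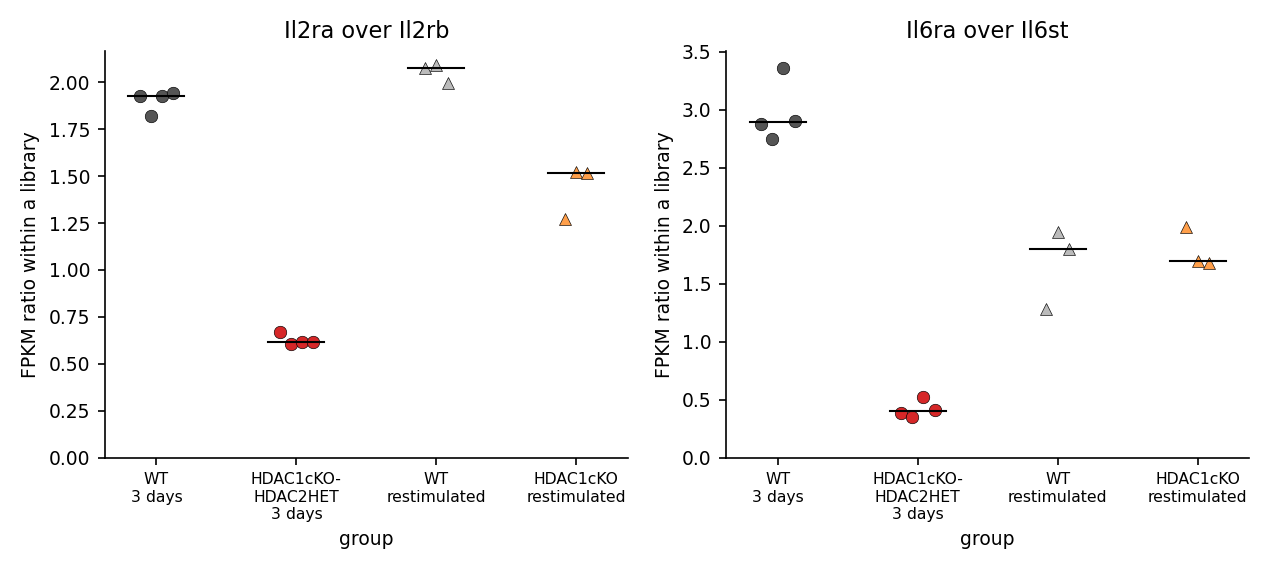
Ratio of Il2ra to Il2rb FPKM (left) and of Il6ra to Il6st FPKM (right) in every library of the 4 groups, with a line at the group median; both axes start at 0. The HDAC1cKO-HDAC2HET libraries lie at 0.605 to 0.670 on the left and at 0.352 to 0.520 on the right, below the WT libraries of the same experiment.

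Il27ra (chr8:84030294-84042589, minus strand), the receptor of IL-27, was 29.1, 43.4, 38.8 and 46.6 FPKM in WT and 33.3, 22.2, 19.5 and 24.7 FPKM in HDAC1cKO-HDAC2HET samples. Mutant replicate 1 was above WT replicate 1, so the groups overlapped. The log2 fold change of -0.67 ± 0.20 was called (adjusted p = 0.0231), but the exact permutation test gave p = 0.0571 (2-sided, 4 against 4), and the call was lost without WT replicate 2 (adjusted p = 0.0593), WT replicate 4 (adjusted p = 0.0614), mutant replicate 2 (adjusted p = 0.0598) or mutant replicate 3 (adjusted p = 0.0569). The restimulated samples had 23.8, 36.4 and 25.6 FPKM in WT and 24.4, 28.6 and 22.5 FPKM in HDAC1cKO cells, which overlapped (log2 difference -0.16, 95% interval -0.61 to 0.29, adjusted p = 0.704).

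Il10ra (chr9:45253837-45269149, minus strand), the ligand-binding chain of the IL-10 receptor, had 11.9, 11.4, 10.1 and 8.68 FPKM in WT and 48.3, 55.3, 44.6 and 47.8 FPKM in HDAC1cKO-HDAC2HET samples. The mutant mean was 4.66-fold the WT mean, with a wide gap between the groups. Its log2 fold change was 2.22 ± 0.11 (adjusted p = 4.19e-06). Among restimulated samples the WT values were 12.6, 3.26 and 18.4 FPKM and the HDAC1cKO values 44.5, 41.8 and 44.0 FPKM. All HDAC1cKO samples were well above the highest WT sample, but the WT samples were spread widely, with a coefficient of variation of 66.9%, and the log2 difference of 2.24 (95% interval 0.74 to 3.73) was not called (adjusted p = 0.225). Without WT replicate 2 this difference was 1.504 and was not called (adjusted p = 0.1). Il10rb, which encodes the partner chain, had no value by the matching rule.

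**Figure D3:**
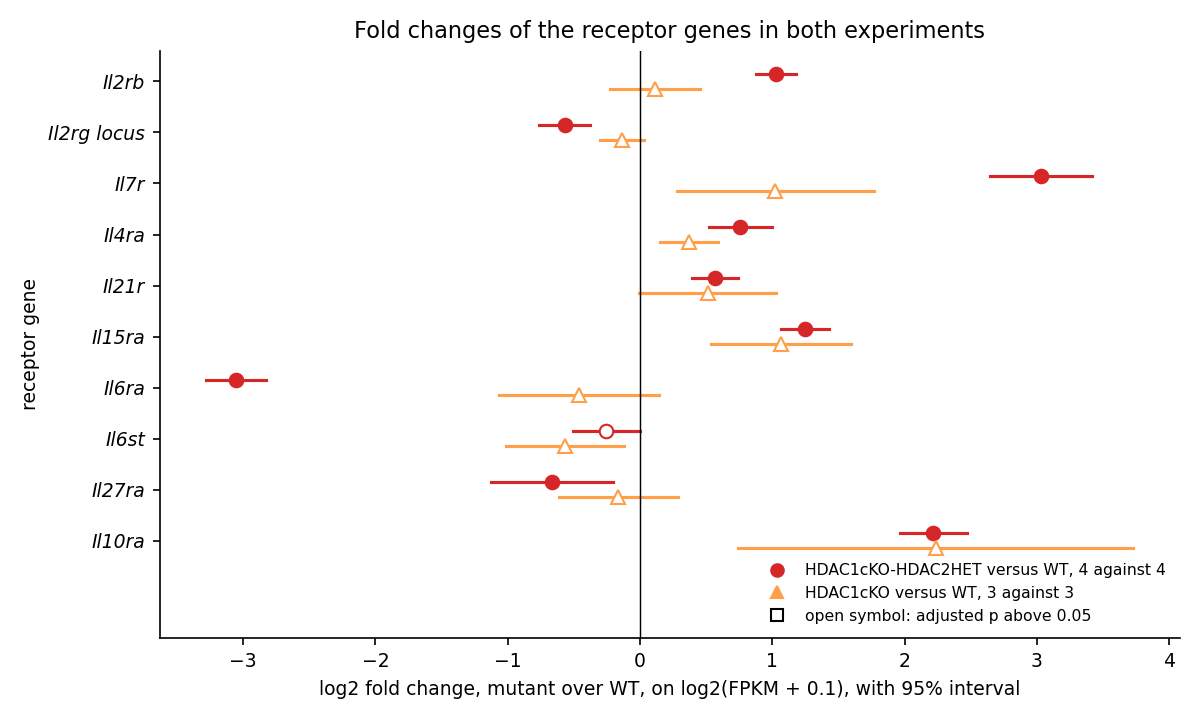
Log2 fold change of mutant over WT for each receptor gene with its 95% interval, from limma on log2(FPKM + 0.1); red circles are HDAC1cKO-HDAC2HET against WT (4 against 4 samples) and orange triangles HDAC1cKO against WT (3 against 3), with open symbols where the adjusted p was above 0.05. In the first experiment 6 of 9 genes and in the second none of them were called higher, and the intervals of the second experiment are widest for Il10ra and Il7r.

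The exact permutation test over the 70 arrangements of 4 against 4 samples gave its smallest possible p of 0.0286 for Il2rb, Il7r, Il4ra, Il21r, Il15ra, Il6ra, Il10ra and the Il2rg locus in the first experiment. This p is unadjusted and is reached wherever the groups do not overlap, as they did not for 50.4% of all genes tested there. In the restimulated experiment, fitted alone, no gene of the set was called by limma in either direction, where 0.0144% of 13911 genes tested were higher and 0.0575% were lower. That result depended on the fit: with both experiments in 1 limma fit, which pools the spread over all 14 samples, Il7r (adjusted p = 0.0274), Il15ra (adjusted p = 0.00314) and Il10ra (adjusted p = 0.00979) were called higher and Il6st lower (adjusted p = 0.0384). Over all genes, that fit called 644 higher and 711 lower of 12350, against 2 and 8 in the fit of the experiment alone, and 7 and 9 with median-of-ratios scaling. At an unadjusted p under 0.05, limma found 1997 genes and 5 of the 9 receptor genes. The groups did not overlap for 5 of the 9 genes, Il7r, Il4ra, Il15ra, Il6st and Il10ra, and for 22.3% of all genes. The exact test cannot give a p below 0.1 for 3 against 3 samples. The median log2 fold change of the 9 genes was 0.37, and that of all genes was -0.03.

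The spread between replicates differed between groups and genes. The median coefficient of variation over the 10 loci was 20.7% in restimulated WT samples, against 9.56% in HDAC1cKO, 11.2% in 3-day WT and 10.4% in HDAC1cKO-HDAC2HET samples. Single genes did not all follow this order: in restimulated WT samples it was 0.505% for the Il2rg locus, and 17.5% for Il6ra against 31.9% in HDAC1cKO samples. Xist, which is transcribed from the inactive X chromosome of female cells, was at 58.9 to 65.2 FPKM in all 3-day WT samples and at 26.0 to 33.7 FPKM in all HDAC1cKO-HDAC2HET samples. Among restimulated samples it was above 1 FPKM in 2 of 3 WT samples and in no HDAC1cKO sample. WT replicate 2, the WT sample without it, had the lowest Il10ra, Il15ra and Il7r of its group. The part of sex in the differences was not tested beyond a fit with Xist class as a covariate, in which WT replicate 2 is the only WT sample that is compared directly. In that fit Il10ra was called (log2 difference 3.70, adjusted p = 0.00893).

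Whether the fold changes differed between the experiments was tested with a limma contrast over all 14 samples. It compares genotypes and cultures together, and these cannot be told apart. All samples of the HDAC1cKO experiment, its WT included, were restimulated, and none of the HDAC1cKO-HDAC2HET experiment were. The difference was called for 3 of the 9 genes, beside 15.7% of 12350 genes tested in both experiments. The log2 fold change was larger in HDAC1cKO-HDAC2HET than in HDAC1cKO cells by 2.01 ± 0.34 for Il7r (adjusted p = 0.00246) and by 0.92 ± 0.15 for Il2rb (adjusted p = 0.00176). For Il6ra the difference was -2.59 ± 0.26 (adjusted p = 0.000119). The fold changes of Il6ra rest on unlike assembled loci, since those of the restimulated experiment lacked the 3′ end of the gene. The Il2rg locus differed by -0.43 ± 0.11 (adjusted p = 0.0207). For Il15ra the difference was 0.18 (95% interval -0.30 to 0.66) and for Il21r 0.05 (-0.42 to 0.52), and neither was called. For Il10ra it was -0.02, with a wide interval of -1.30 to 1.26. Without WT replicate 2 of the restimulated experiment the Il10ra difference was 0.71 and was called (adjusted p = 0.0377), and with the Xist covariate it was -1.48 and was called in the opposite direction (adjusted p = 0.0037). Il4ra differed by 0.39 (95% interval 0.07 to 0.71), which was not called (adjusted p = 0.0949) but passed without 3-day WT replicate 2 (0.49, adjusted p = 0.0153).

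The order of the receptors by FPKM within a group was partly shared. In 3-day WT cells the Il2rg locus was highest (317 ± 12.7), followed by Il2rb (174 ± 13.95), Il21r (73.4 ± 6.41), Il4ra (45.2 ± 6.92), Il27ra (39.5 ± 7.59), Il6ra (21.8 ± 1.84), Il10ra (10.51 ± 1.45), Il15ra (10.2 ± 0.285), Il6st (7.41 ± 1.02) and Il7r (2.36 ± 0.599). The ranges of Il4ra and Il27ra overlapped, as did those of Il10ra and Il15ra, and no other neighbours did. In HDAC1cKO-HDAC2HET cells Il2rb came first (354 ± 18.2), above the Il2rg locus (214 ± 25.9), and Il6ra came last (2.55 ± 0.304). There Il10ra stood between Il4ra and Il27ra at 49.0 ± 4.51, and Il7r (19.7 ± 2.29) overlapped with Il15ra (24.5 ± 2.76), which overlapped with Il27ra (24.9 ± 6.01). In restimulated WT cells Il21r (136 ± 41.1) and Il2rb (132 ± 17.1) overlapped, and Il15ra, Il6ra, Il10ra and Il6st formed a run in which each overlapped with the next. In HDAC1cKO cells Il21r (188.5 ± 16.7) was apart from Il2rb (143 ± 20.8), Il4ra (47.5 ± 3.07) overlapped with Il10ra (43.5 ± 1.44), Il6ra (8.97 ± 2.86) overlapped with Il7r (7.08 ± 0.726), and Il6st was lowest (4.95 ± 1.10).

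RefSeq promoter windows (GRCm38.p6, 300 bases around the start of transcription) were at hand for 7 of the 10 genes, and not for Il2rb, Il27ra and Il10ra. They were searched on both strands for 4 motifs, the STAT-binding GAS element TTCNNNGAA, the RUNX motif TGTGGT, the FOXO motif GTAAACA and the GC box GGGCGG. Among all 32851 promoter windows these were present in 8.30%, 16.8%, 3.65% and 35.7%. The GAS element was found in the window of Il7r only, and the RUNX motif in those of Il7r, Il21r and Il2rg. In Il21r the RUNX match overlapped with the FOXO match, which was the only FOXO match of the set. A GC box was found in Il4ra, Il21r, Il6st and 1 of the 2 windows of Il15ra. The windows of the genes with the largest rise and fall are shown, at chr15:9529827-9530126 and chr3:89913147-89913446, both on the minus strand and printed 5′ to 3′, with motif matches in capitals.
Il7r: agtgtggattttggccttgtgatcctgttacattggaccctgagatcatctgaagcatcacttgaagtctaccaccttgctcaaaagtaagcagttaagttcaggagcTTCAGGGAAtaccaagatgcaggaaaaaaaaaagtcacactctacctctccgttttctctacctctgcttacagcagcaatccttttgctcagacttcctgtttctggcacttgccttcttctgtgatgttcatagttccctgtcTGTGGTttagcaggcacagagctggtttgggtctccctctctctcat
Il6ra: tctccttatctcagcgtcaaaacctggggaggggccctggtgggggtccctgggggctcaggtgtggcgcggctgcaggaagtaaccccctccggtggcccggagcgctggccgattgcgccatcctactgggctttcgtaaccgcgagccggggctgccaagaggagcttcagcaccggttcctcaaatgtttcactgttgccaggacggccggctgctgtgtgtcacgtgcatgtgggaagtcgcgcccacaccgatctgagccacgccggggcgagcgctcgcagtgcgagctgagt
The Il7r window held 1 CpG at 45.7% GC and the Il6ra window 25 CpG at 66.0% GC, where the median of all windows was 7 CpG and 52.7% GC. Of the other rising genes, Il2rb and Il10ra had no window. The windows of the rest held 25 CpG for Il4ra (62.0% GC), 7 for Il21r, and 6 and 15 for the pair of Il15ra windows. That of Il6st, which was not called, held 33. A match is a description of these letters, and its absence says nothing of the factor.

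Downstream genes were taken from fixed lists. Of 11 JAK kinases and STAT factors, 9 had a value in the 3-day experiment, where 2 were higher, 3 were lower and 4 were not called. Of all genes tested there, 24.2% were higher and 27.6% lower. Jak3, the kinase of the common gamma chain, fell from 91.2 ± 3.39 to 36.6 ± 2.196 FPKM (log2 fold change -1.31 ± 0.05, adjusted p = 1.52e-06). Jak2 fell from 138 ± 13.7 to 48.4 ± 4.62 FPKM (-1.51 ± 0.09, adjusted p = 8.44e-06), and Jak1 from 67.5 ± 2.69 to 61.7 ± 3.00 FPKM (-0.13 ± 0.04, adjusted p = 0.0393). Stat3, which IL-6, IL-10, IL-21 and IL-27 receptors activate, rose from 56.7 ± 1.89 to 109.6 ± 5.69 FPKM (0.95 ± 0.04, adjusted p = 3.14e-06). Stat5a and Stat5b, the main factors of IL-2 and IL-7 signalling, had log2 differences of 0.02 ± 0.11 and -0.03 ± 0.05 and were not called. After restimulation none of the 11 genes tested was called by limma, and 3 had an unadjusted p under 0.05. Of all 13911 genes tested there, 1997 had such a p. The median log2 fold change of the list was -0.04 in the first experiment.

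Of 12 feedback inhibitors of cytokine signalling, 11 had a value in the 3-day experiment, where 2 were higher and 4 lower. Of all genes tested, 24.2% were higher and 27.6% lower. Socs3, a STAT3 target whose product binds gp130, rose from 5.61 ± 0.305 to 20.9 ± 2.61 FPKM (log2 fold change 1.87 ± 0.09, adjusted p = 4.2e-06). After restimulation it was 15.8, 3.31 and 3.403 FPKM in WT and 8.21, 6.86 and 8.31 FPKM in HDAC1cKO samples. WT replicate 1 was above all HDAC1cKO samples and the other two WT samples were below them, and the gene was not called (adjusted p = 0.757 by limma). Of 19 ligands, 10 were tested in the 3-day experiment, with 3 higher and 1 lower, beside the same shares of all genes. Il2 fell from 63.0 ± 14.6 to 15.8 ± 5.34 FPKM (-2.02 ± 0.27, adjusted p = 0.000424), and Il12a was higher at very low levels of 0.0493 ± 0.0263 and 0.210 ± 0.0804 FPKM. Il10 was below the filter, and Il6, Il7 and Il27 had no value, in the 3-day experiment.

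Of 34 partner and related receptor chains, 12 were tested in the 3-day experiment, 15 were below the mean of 0.1 FPKM and 7 had no value. Of those tested, 3 (Ifngr1, Ifnar1 and Il12rb1) were higher and 7 lower, with a median log2 fold change of -0.53. Of all genes tested, 24.2% were higher and 27.6% lower. Csf2ra, the GM-CSF receptor alpha chain, fell from 13.3 ± 1.19 to 4.66 ± 0.553 FPKM. The IL-18 receptor chains Il18r1 (5.10 ± 1.49 to 1.95 ± 0.442 FPKM) and Il18rap (2.36 ± 0.395 to 1.03 ± 0.186 FPKM) fell as well. Il11ra1, another chain that pairs with gp130, fell from 1.52 ± 0.465 to 0.639 ± 0.0772 FPKM, and the IFN-γ receptor chain Ifngr2 from 7.05 ± 0.297 to 3.36 ± 0.583 FPKM. The other IFN-γ receptor chain, Ifngr1, rose from 14.8 ± 0.192 to 20.8 ± 3.15 FPKM (log2 fold change 0.48 ± 0.11, adjusted p = 0.00608 by limma). No gene of the lists of feedback inhibitors, ligands and partner chains was called in the restimulated experiment. There 11, 14 and 14 of them were tested by limma, and 1, 2 and 7 had an unadjusted p under 0.05. Of all 13911 genes tested, 1997 had such a p.

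**Figure D4:**
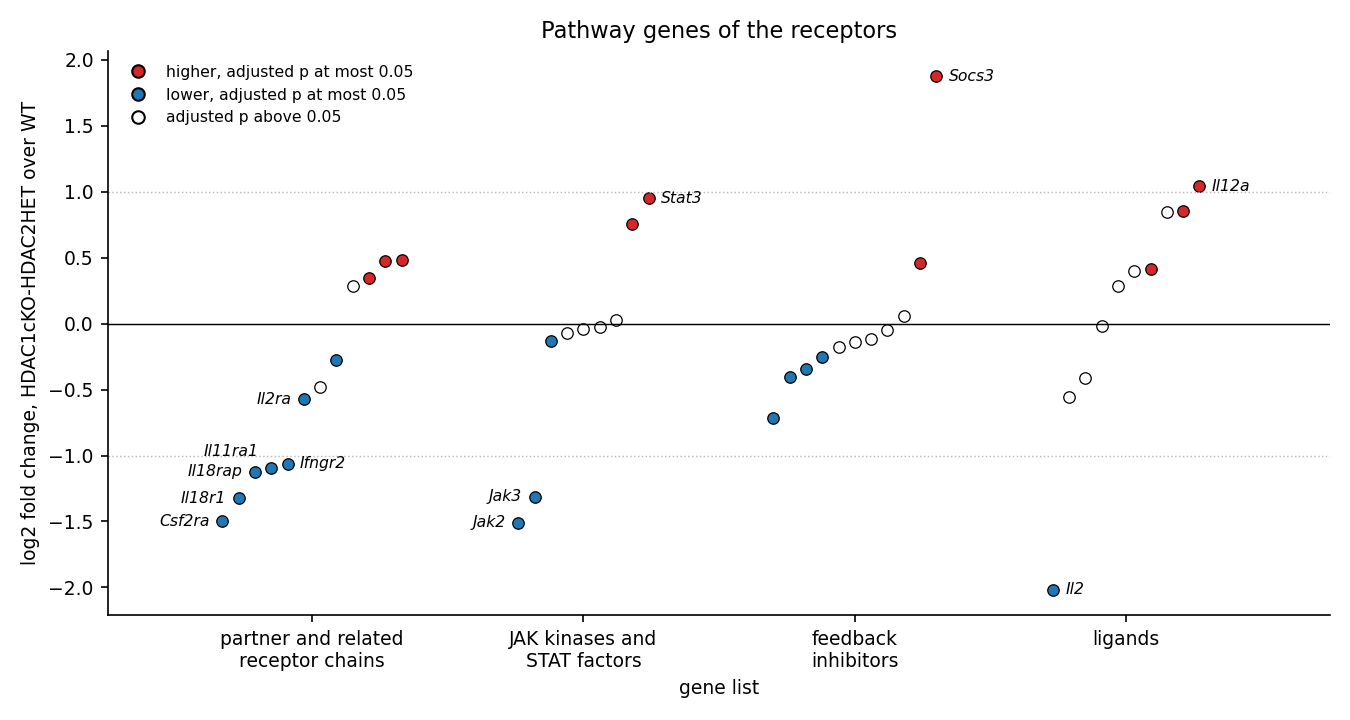
Log2 fold change of HDAC1cKO-HDAC2HET over WT after 3 days for the tested genes of 4 lists, sorted within each list; red is higher and blue lower at an adjusted p of at most 0.05, white is not called, and dotted lines mark a fold change of 2. Socs3 (1.87) is the highest gene and Il2 (-2.02) the lowest, and names are given for the genes past or near the dotted lines and for Il2ra.

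The cells carried T cell transcripts in every group. The summed FPKM of 8 CD4+ T cell markers was 1764 to 1882 in 3-day WT, 1536 to 1580 in HDAC1cKO-HDAC2HET, 1394 to 1717 in restimulated WT and 1538 to 1725 in HDAC1cKO samples. In HDAC1cKO-HDAC2HET cells 7 of the 8 were lower and Cd2 was higher, where 27.6% of all genes tested were lower and 24.2% higher. The sum of Cd8a and Cd8b1 was 3.28 to 5.96 FPKM in 3-day WT and 11.7 to 15.2 FPKM in HDAC1cKO-HDAC2HET samples, and 3.798 to 4.86 and 6.52 to 7.30 FPKM in the restimulated groups. Cd8a alone was 0.0390 to 0.0858 FPKM in 3-day WT and 0.315 to 0.574 FPKM in HDAC1cKO-HDAC2HET samples. It was at most 0.299 FPKM in any restimulated sample, so the sum was mostly Cd8b1 in every group. Of the B cell markers, Cd79b was higher in HDAC1cKO-HDAC2HET (2.76 ± 0.473 FPKM) than in 3-day WT samples (0.293 ± 0.0713 FPKM, adjusted p = 1.06e-05 by limma), and was 0.365 ± 0.102 FPKM in restimulated WT and 0.626 ± 0.137 FPKM in HDAC1cKO samples. It was 1 of 2 B cell markers tested in the 3-day experiment, and the other was not called. Myeloid, NK cell and erythroid markers summed to at most 0.571, 0.0938 and 0.0738 FPKM in any sample. Only markers with a value entered these sums, 5 of 6 myeloid ones in both experiments. Of 4 NK cell markers, 2 entered in the 3-day and 3 in the restimulated experiment. Of 3 erythroid markers, 3 and 1 did. The part of CD8- or B cell transcripts in the receptor differences was not tested.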

How the data were processed

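RNA-Seq data of 14 samples were used, each with 1 table. According to the methods, the authors mapped the reads to mm10 with TopHat and computed the deposited FPKM values with Cufflinks, which assembled loci per library; the submitters' processing notes name STAR 2.5.2b, Subread 1.5.1, R 3.4 and edgeR instead, and their role could not be settled. The kit was stranded, but whether strand was used for counting is not given in the sources used here. Nor is it given whether this kit and this mapping were used for the restimulated samples, for which the study cites an earlier report. Il4ra, Il6ra and Il10ra overlap with antisense or pseudogene annotations, and Il27ra with Palm3 by 2 bases. Values are scaled to library and length, and no counts were used. At low values, 81.8% to 84.6% of genes per sample gave whole fragments within 0.05, which yielded the depth estimates.

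Loci were matched to GENCODE annotation of GRCm38 (shared span at least 0.8, which the loci of an experiment also had to share with each other). The fits used limma 3.58.1 (R 4.3.3) with an intensity trend on log2(FPKM + 0.1), 1 fit per experiment, and required a mean of 0.1 FPKM or more. Exact permutation tests of single genes (2-sided) ran over 70 arrangements for 4 against 4 and 20 for 3 against 3 samples. Groups and replicate numbers came from the sample labels. In the 3-day experiment the study describes independent cell batches prepared on the same day, and where samples did not come from separate animals p-values measure only the spread between them. Genes, gene lists and tests were chosen with earlier results of these data known. By rule, all receptors, Hdac1 and Hdac2, Il2ra, Jak1, Jak3, Stat3, Stat5a, Stat5b and Il10rb were named, and list genes past an adjusted p of 0.05 and a fold change of 2 in the 3-day experiment. Ifngr1, Ifnar1, Il12rb1, Il12rb2, Cd2, Xist and the ligands Il6, Il7, Il10 and Il27 were named outside this rule. Alternatives changed the pseudocount, filter, scaling, variance model, weights, covariates, matching and each sample in turn.

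In simulated data, 100 genes were changed by 1 and 100 by 2 on the log2 scale. The fit of the 3-day experiment recovered 77 and 88 of them among 15105 genes, with 15 false calls. That of the restimulated experiment recovered 53 and 81 among 13911, with 6 false calls. That of the difference recovered 60 and 82 among 12350, with 33 false calls. The false calls of the difference, and less so those of the 3-day fit, exceeded the share that the adjusted p threshold is meant to allow. Calls of the difference may thus be less certain than their adjusted p states. Far fewer genes were changed here than were called in the 3-day data (24.2% higher, 27.6% lower), so these rates need not hold for the real fits. Figures were drawn with matplotlib 3.10.9. A summed level of the B cell markers is not reported here.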

Additional observations from a re-analysis of the deposited data

Results flagged for a closer look

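Il7r in 3-day WT replicate 2 stood apart from the other WT samples, at 3.26 FPKM against 2.15 for the nearest, a gap of 0.87 of the group's range. Of 20 groups of 4 samples examined, this was the only one of its kind, and chance alone flags about 5% of such groups. The assembled locus of Il7r in that library ended at position 9533887 and not at 9529876.

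The fold changes of 3 receptor genes and of the Il2rg locus differed between the experiments by the test of the difference itself, which compares genotype and restimulation together. The log2 fold change in HDAC1cKO-HDAC2HET minus that in HDAC1cKO cells was 0.92 for Il2rb, 2.01 for Il7r, -2.59 for Il6ra and -0.43 for the Il2rg locus. The assembled loci of Il6ra were not alike in both experiments.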

How the results depend on the processing

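With other pseudocounts, filters, scalings, variance models and weights, the 3-day experiment kept its counts of 6 higher and 2 lower genes within 1.5 times. The count of lower genes was 1 with the replicate block and with the exact permutation test, since Il27ra lost its call, and 1 to 3 with single samples left out. Replicate numbers did not pair the samples (correlations of deviations -0.03 to 0.07), and with the replicate block Il27ra had an adjusted p of 0.076 and no other receptor gene changed its call. In the restimulated experiment 1 gene was called higher with the Xist covariate, and 3 higher (Il7r, Il15ra and Il10ra) and 1 lower (Il6st) when both experiments shared 1 fit, against 0 otherwise. Leaving out samples reversed Il27ra without WT replicate 2 (0.021, lowest -0.283 without WT replicate 1) and Il2rb without HDAC1cKO replicate 1 (-0.0051, up to 0.212 without WT replicate 1), both uncalled. The difference between the experiments reversed for Il10ra with a pseudocount of 1 (0.028), without 3-day WT replicates 1 (0.04) and 2 (0.02), without HDAC1cKO-HDAC2HET replicate 3 (0.02) and without restimulated WT replicate 2 (0.71), with a lowest value of -0.52 without restimulated WT replicate 3, for Il15ra with the Xist covariate (-0.29) and without restimulated WT replicate 1 (-0.018, highest 0.417), and for Il21r with the Xist covariate (-0.27), without restimulated WT replicate 3 (-0.18) and without HDAC1cKO replicate 1 (-0.017, highest 0.213). The Il2rg locus lost the call of its difference with the Xist covariate (adjusted p = 0.0864). The cause was not tested. Over all genes, the restimulated experiment had 2 higher and 8 lower calls, but 644 and 711 when both experiments shared 1 fit, 24 and 40 with the Xist covariate, 16 and 14 with array weights, 9 and 10 at a mean FPKM of at least 1, 7 and 9 with median-of-ratios scaling, 6 and 8 with quantile normalization, 0 and 6 without the trend, 0 and 5 with the block and up to 24 and 31 without 1 sample (WT replicate 3). The difference between the experiments had 1015 higher and 923 lower calls, but 588 and 529 with separate fits and 732 and 485 with the Xist covariate. The Xist covariate could not be used within the 3-day experiment, where all samples had Xist, and rows listed by name alone gave no receptor gene a value in every sample. Of all values recomputed, 777 were unchanged. For a gene this means the same direction and side of the threshold, and for a count of genes a value within 1.5 times. Of the rest, 12 values reversed direction, 8 gained and 7 lost a call, and 9 counts moved further.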

Other observations

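Il12rb2, the inducible chain of the IL-12 receptor, had no value in the 3-day experiment and was chosen here after its values were seen. After restimulation it had 14.3, 1.88 and 13.5 FPKM in WT and 60.9, 50.4 and 64.4 FPKM in HDAC1cKO samples. The groups did not overlap, and the log2 difference of 3.00 ± 0.77 was not called (adjusted p = 0.212). WT replicate 2, which also had the lowest Il10ra, was lowest.

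Inside the Il10ra locus, smaller assembled loci without a name numbered 6, 6 and 5 in the HDAC1cKO libraries and 1, 1 and 2 in the restimulated WT libraries. In the 3-day experiment they numbered 0 to 1 in WT and 1 to 3 in HDAC1cKO-HDAC2HET libraries. What they hold was not analysed here.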
